A study of Saccharomyces cerevisiae with 18 samples.

Results

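Chromatin accessibility at the promoters of ribosome biogenesis genes was followed through the yeast metabolic cycle by ATAC-seq, an assay whose transposase cuts and tags DNA where chromatin is open. The genes were chosen by symbol: the numbered members of the UTP, NOP, RRP, RPF, NUG, NOG, NOC, NSA, DBP, SPB, MAK, IMP, ENP, ESF, RPA, RPC and RRN series, plus NSR1, GAR1, CBF5, NHP2, BUD21, BUD22, ERB1, YTM1, EBP2, HAS1, KRR1, BRX1, TIF6 and NMD3, with IMP1 and IMP2 left out. IMP21 carries IMP2 as an older name but has its own symbol in R64, so it matched and was kept; whether the exclusion of IMP2 was meant for it is not known. Of the 128 genes that matched in the R64 annotation, 29 (22.7%) had an accessible peak within 500 bp of the 5' end of the coding gene. DBP7 and RPC37 shared a peak, so the genes were represented by 28 of the 2086 peaks measured. The other 99 genes had no peak in this window and enter no comparison of accessibility.

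Saccharomyces cerevisiae cells were taken from a fermenter culture at 18 ordered time points, with 1 library each. The labels place time points 6 to 10 in the Oxidative phase (5 libraries), 11 to 15 in Reductive Building (5 libraries) and 1 to 5 and 16 to 18 in Reductive Charging (8 libraries). They give no strain, genotype, treatment or clock time, and the 2 collection batches are not assigned to libraries, so batch and phase cannot be told apart and no value within a batch can be given. Libraries of a phase served as its replicates, and p-values therefore measure the spread between time points of a phase.

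Ribosome biogenesis factors cut, fold and modify the ribosomal RNA precursor in the nucleolus and join it with ribosomal proteins. RNA polymerase I makes that precursor and RNA polymerase III makes the smallest ribosomal RNA and the transfer RNAs. In budding yeast the genes for assembly factors and for subunits of both polymerases are known as a co-regulated group that is induced during growth. In the metabolic cycle their transcripts are known to peak around the Oxidative phase.

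Total counts ran from 21254 at time point 16 to 29314373 at time point 4. At time points 11, 13, 15, 16 and 18, between 229 and 1720 of the 2042 nuclear peaks outside the ribosomal DNA had 0 counts. The other 13 libraries had at most 42 such peaks and between 6372179 and 29314373 counts. Comparisons below use these 13 well-covered libraries: 5 Oxidative, 2 Reductive Building (time points 12 and 14) and 6 Reductive Charging (time points 1 to 5 and 17). Accessibility is given as CPM (counts scaled to library size) with TMM factors, which sets each library against the bulk of its peaks. Mitochondrial DNA held 16.0% to 46.7% of counts in these Oxidative, 21.0% to 38.3% in Reductive Building and 46.7% to 65.5% in Reductive Charging libraries; its part in the results was not tested beyond the fit on nuclear peaks alone. Time point 17 stood apart from the other Reductive Charging libraries, and the counts and medians of the phase comparisons, and the values it moves most, are given with and without it. In such bulk samples, fewer cells with an open site and less opening per cell cannot be told apart.

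Few ribosome biogenesis genes carried a called peak. The share of 22.7% compares with 2664 of 6002 coding genes (44.4%) and with 125 of 138 cytosolic ribosomal protein genes (90.6%), which encode the proteins that the assembly factors place on ribosomal RNA. The low share was found across roles. Peaks were present for 9 of 38 genes of the small subunit, 9 of 39 of the large subunit, 3 of 14 of RNA polymerase I and its factors, 3 of 11 of polymerase III and subunits shared with polymerase I, 1 of 7 of the guide RNA particles, 1 of 7 of the exosome, 1 of 3 that serve both subunits, and 2 of 9 whose names match but whose role is another one or was not assigned. Of 76 further assembly genes outside the symbol rule, 21 (27.6%) had a peak. For the 99 genes without one, the nearest nuclear peak lay at a median distance of 2207 bp, and 16 of them had a peak between 509 and 1000 bp away. A gene without a peak in this common list was not shown to be closed, because the list holds only regions that the authors called.

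**Figure D1:**
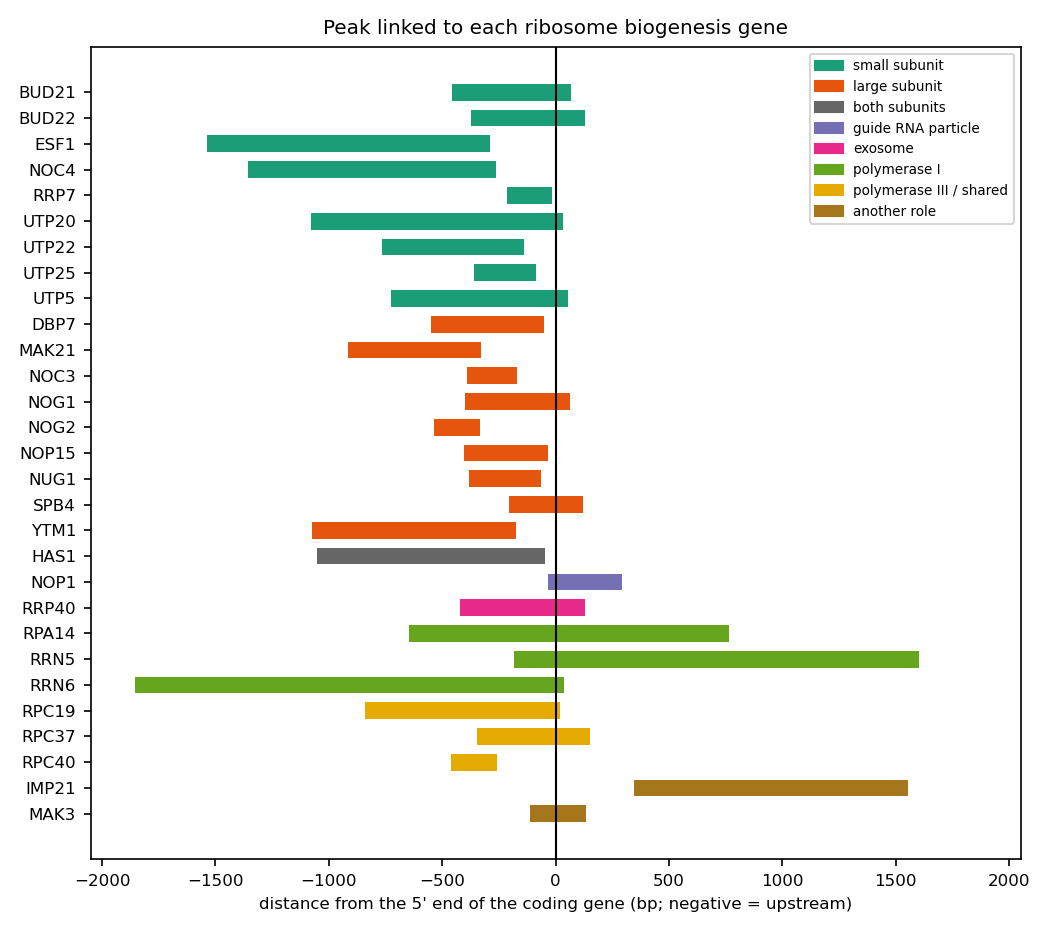
Each bar is the peak linked to a gene, placed by its distance in bp from the 5' end of that coding gene (negative values are upstream) and coloured by role. The peaks of 14 genes run over their own 5' end, those of ESF1 and NOC4 end 290 and 262 bp upstream, and the IMP21 peak lies wholly downstream.

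The peaks were 200 to 1891 bp long, with a median of 535 bp against 595 bp for all nuclear peaks. In 14 of the 28 the peak ran over the 5' end of a member gene, and the midpoint lay at a median of 224.5 bp upstream. Peaks ran over such a 5' end in 989 of 1716 picked in the same way for all coding genes. For cytosolic ribosomal protein genes it was 97 of 120. Most were shared: 19 peaks (67.9%) were also linked to a gene outside the group. The other 9, with that of DBP7 and RPC37 among them, had members alone. Of all 1766 promoter peaks, 857 (48.5%) had at least 2 genes. These shares are not like for like, because a peak near several gene starts was more likely to enter a group picked by gene. The midpoint lay nearest to a member's start in 16 of the 28. Shared neighbours included ASN1, an asparagine synthetase gene, at the NOC4 peak, the ubiquitin-conjugating enzyme gene UBC5 at MAK21, the kinase gene TDA1 at HAS1, and the proline oxidase gene PUT1 at RRN5. The counts cannot say which gene of such a pair a peak serves.

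Several peaks overlapped genes for stable RNAs or repeats. The peaks of NOC4, YTM1 and BUD22 overlapped the small nucleolar RNA genes SNR45, SNR8 and SNR72. Thus 3 of 28 (10.7%) overlapped such a gene, against 24 of 2042 nuclear peaks (1.18%). Small nucleolar RNAs guide chemical marks on ribosomal RNA. The UTP20 and UTP22 peaks each overlapped a transfer RNA gene (7.14%, against 9.99% of nuclear peaks). The ESF1 peak overlapped the transposon genes YDR365W-A and YDR365W-B and the UTP20 peak overlapped YBL005W-B. Transposon copies are near-identical, so the counts of these peaks are uncertain.

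The group was weakly accessible for its length. Its median was 75.5 CPM per kb, against 98.7 for all nuclear peaks and 299 for the 120 ribosomal protein peaks. The 1716 peaks picked in the same way for all coding genes had a median of 107 CPM per kb. Of the 28, 11 lay above the nuclear median. The highest was the peak over RRN5, a subunit of the upstream activating factor of RNA polymerase I, with 578 CPM per kb (chrXII:423500-425285, R64). NOC4, a small subunit factor, followed with 463 CPM per kb (chrXVI:821685-822780), and UTP22, a protein of the small subunit processome, had 410 CPM per kb (chrVII:661593-662216). Each of the 3 peaks overlaps another gene: PUT1 at RRN5, ASN1 with SNR45 at NOC4, and a transfer RNA gene at UTP22. The NOC4 and UTP22 peaks lie 262 and 142 bp from the start of their member and do not reach it. The lowest were RRP7, which acts with Utp22 in the small subunit processome (35.2 CPM per kb), RPC19, a subunit common to polymerases I and III (37.0 CPM per kb), and RPC40, another common subunit (43.7 CPM per kb).

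The Oxidative phase was set against Reductive Charging to ask whether these promoters open when respiration is high. The group leaned slightly towards higher accessibility in Oxidative libraries, but no single peak passed the test. Of the 28, 20 had a positive log2 fold change, where 1075 of all 2086 peaks did. The median was 0.14 against 0.02 for all peaks. Without time point 17 there were again 20, and the median was 0.11 against 0.04, so that the difference between the medians was 0.078 in place of 0.13. edgeR's quasi-likelihood test with Benjamini-Hochberg adjustment over all peaks called 0 of 28, where it called 2.78% of all peaks. limma-voom also called 0 of 28, where it called 2.78% of all peaks. DESeq2 called 0 of the 14 members to which it gave an adjusted p, where it called 9.43% of the 1358 peaks that had one; the other 14 members, left out by its filter on low counts, had none. At an unadjusted p under 0.05 there was 1, HAS1, where 16.5% of all peaks reached that level. Without time point 17 there were 2, BUD22 and MAK21, where 16.9% of all peaks were. Oxidative and Reductive Charging libraries overlapped in every one of the 28, while 4.31% of all peaks were free of overlap.

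Factors of the large subunit mostly leaned towards higher accessibility, as did those of the small subunit given below. Of 9 large subunit peaks, 8 had a positive log2 fold change, where 1075 of all 2086 peaks did. Their median was 0.33, and 0 passed. Without time point 17 there were 7 of 9, with a median of 0.47. MAK21, which acts early in large subunit assembly, had 110, 64.9, 117, 55.7 and 93.4 CPM at Oxidative time points 6 to 10, against a lowest of 28.0, a median of 56.1 and a highest of 100 CPM in Reductive Charging. The ranges overlapped, and the Reductive Charging maximum was the library at time point 17. Its log2 fold change was 0.60 ± 0.34 (± is the SE for every log2 fold change; edgeR adjusted p = 0.380), and 0.83 without time point 17 (edgeR adjusted p = 0.183).

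The GTPase gene NOG1, needed for release of assembly factors from the large subunit precursor, had 12.8, 40.5, 77.5, 34.6 and 58.7 CPM in Oxidative libraries, against a lowest of 0.0, a median of 27.2 and a highest of 37.3 CPM in Reductive Charging. Time point 6 lay among the low values and the 0 came from time point 17, where a count of 0 allows up to 0.194 CPM. Its log2 fold change was 0.86 ± 0.81 (SE) and was not called, or 0.59 without time point 17. NOG2, another GTPase gene of the same pathway, had 5.72, 7.85, 14.4, 35.5 and 11.2 CPM in Oxidative libraries, against a lowest of 2.12, a median of 6.37 and a highest of 11.8 CPM in Reductive Charging. Its high mean came mostly from time point 9, and the log2 fold change was 1.11 ± 0.67, or 0.50 without that library. The NOG2 peak is one of the weakest of the group, and it overlaps the neighbouring gene ESF2.

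Among small subunit genes, 7 of 9 had a positive log2 fold change, with a median of 0.13, and 8 of 9 without time point 17, with a median of 0.28. BUD22, a factor of small subunit RNA processing, had 14.9, 27.6, 25.8, 40.6 and 65.6 CPM in Oxidative libraries, against a lowest of 0.323, a median of 13.3 and a highest of 28.1 CPM in Reductive Charging. It was highest at time points 9 and 10, and time points 6 to 8 lay within the Reductive Charging range. The log2 fold change was 1.23 ± 0.68, and 0.98 without time point 17 (edgeR adjusted p = 0.289). UTP5, a processome subunit that also acts in ribosomal DNA transcription, went the other way at -0.33 ± 0.31. NOC4 had 588, 493, 607, 643 and 506 CPM, against a lowest of 351, a median of 498 and a highest of 550 CPM. The 3 highest NOC4 values of all were Oxidative ones, and the other 2 lay within the Reductive Charging range, with a log2 fold change of 0.22 ± 0.14.

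HAS1, a helicase gene that serves both subunits, was the most negative of the group. Its peak had 95.0, 111, 80.5, 52.5 and 69.7 CPM in Oxidative libraries, against a lowest of 104, a median of 113 and a highest of 164 CPM in Reductive Charging. Only time point 7 reached the Reductive Charging range. The log2 fold change was -0.59 ± 0.24 (edgeR adjusted p = 0.217), and -0.49 without time point 17 (edgeR adjusted p = 0.300). The shared peak of DBP7, a large subunit helicase gene, and RPC37, a polymerase III subunit gene, had a log2 fold change of -0.38 ± 0.43, or -0.23 without time point 17.

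The genes of polymerase I and of the guide RNA particles differed little or varied widely. RRN5 had 1052, 702, 1304, 1453 and 985 CPM in Oxidative libraries, against a lowest of 803, a median of 954 and a highest of 1409 CPM in Reductive Charging, a log2 fold change of 0.16 ± 0.19. Both ranges cover each other for the most part, and time point 17 was the Reductive Charging maximum. RPA14, a polymerase I subunit gene, had -0.29 ± 0.18, and RRN6, a core factor gene, had 0.08 ± 0.16. NOP1, the fibrillarin gene whose product methylates ribosomal RNA, ran from 0.634 CPM at time point 10 to 42.2 CPM at time point 9, and its log2 fold change of 0.76 ± 0.72 was close to its standard error and was 0.40 without time point 9. RRP40, an exosome subunit gene, had 0.15 ± 0.31.

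**Figure D2:**
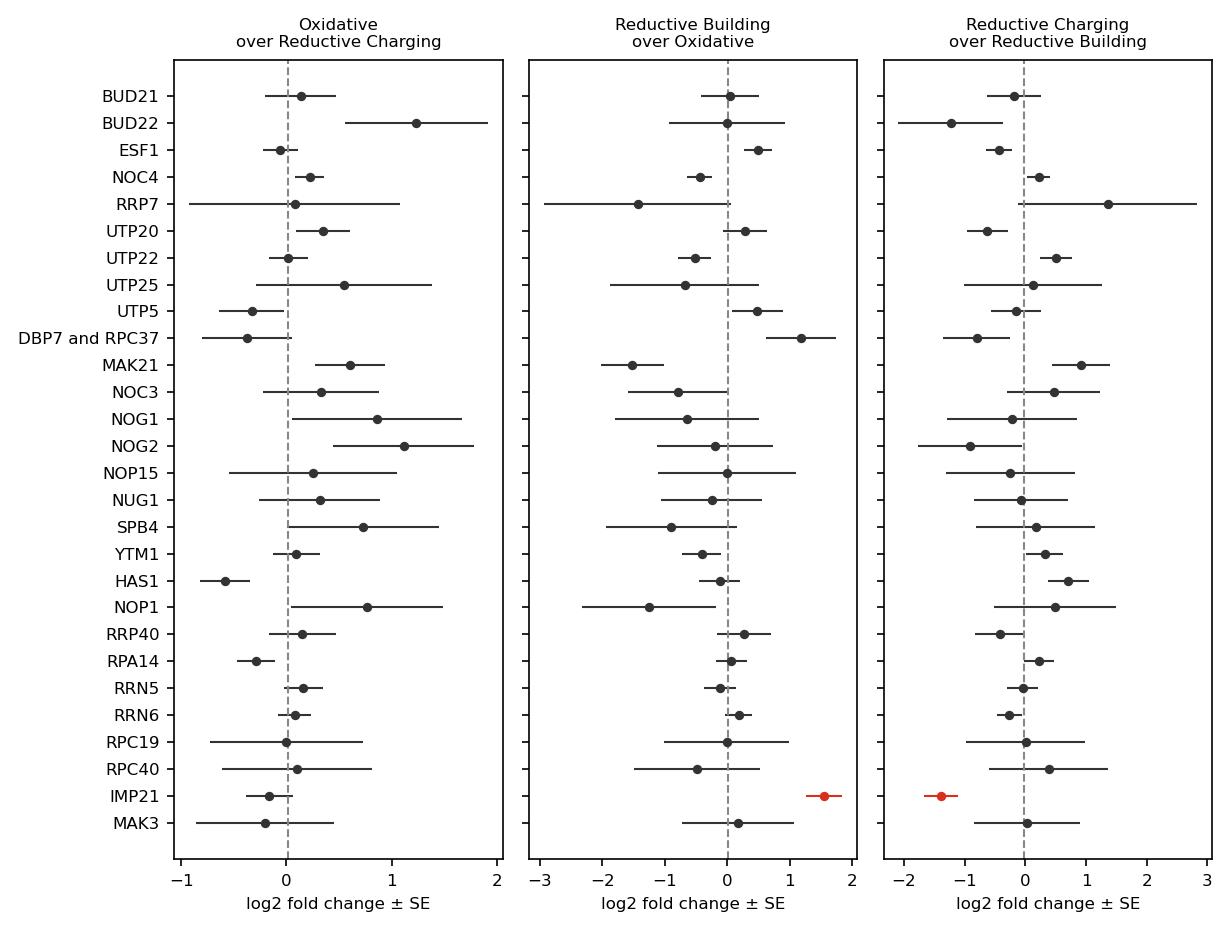
Log2 fold change of each of the 28 peaks with its standard error (edgeR) in the 3 phase comparisons, with the median of all peaks as a dashed line and called peaks in red. The 1 red point in each of the 2 right panels is IMP21 (1.55 and -1.39), and no point is red in the Oxidative over Reductive Charging panel.

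Reductive Building was set against the Oxidative phase to ask what changes as respiration ends. Reductive Building is represented by time points 12 and 14 alone. The Oxidative libraries are those of the comparison above, so its values and these are not independent. The group leaned lower in Reductive Building, with 18 of 28 log2 fold changes negative and a median of -0.12 against 0.02 for all peaks. edgeR called 1 of 28 higher and 0 lower, where it called 1.49% of all peaks in either direction, 0.575% of them higher. At an unadjusted p under 0.05 there were 5, where 15.5% of all peaks were: IMP21, MAK21, NOC4, ESF1 and the peak of DBP7 and RPC37.

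The 1 called peak was that of IMP21, a gene that matches the symbol pattern but is not known as a ribosome factor. It had 334 and 596 CPM in Reductive Building libraries, against 230, 105, 145, 135 and 179 CPM in Oxidative ones. Both Reductive Building values were above every Oxidative one. The log2 fold change was 1.55 ± 0.29 (edgeR adjusted p = 0.0146). The peak (chrIX:53466-54676, R64) lay 345 bp or more downstream of the IMP21 start, over the start of GUT2, which encodes a dehydrogenase of mitochondrial glycerol use. Without time point 14 the log2 fold change was 0.99 (edgeR adjusted p = 0.125). Without IMP21 and MAK3, the other name match with a different role and a peak, 0 of 26 peaks were called in any of the 5 comparisons or the time course.

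MAK21 had the most negative log2 fold change among the 28. It had 26.8 and 34.8 CPM in Reductive Building libraries, below all 5 Oxidative values given above, and its log2 fold change was -1.52 ± 0.51 (edgeR adjusted p = 0.143). DESeq2 called it along with IMP21, 2 of 28, where that tool called 4.99% of all peaks. The MAK21 peak was shared with UBC5 and lay nearer to the UBC5 start. Of 9 large subunit peaks, 8 had a negative log2 fold change, where 1013 of all 2086 peaks did. Their median was -0.41, with 0 called. This lean shares its Oxidative libraries with the lean over Reductive Charging and is not independent of it.

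Non-overlap of the libraries was found for 6 of the 28, where 19.8% of all peaks showed it. NOC4 had 418 and 420 CPM in Reductive Building libraries, below all 5 Oxidative values, with a log2 fold change of -0.44 ± 0.20 (edgeR adjusted p = 0.304). SPB4, a large subunit helicase gene, had 6.28 and 19.0 CPM against 19.2, 26.5, 25.3, 19.6 and 27.3 CPM, where time point 14 came within a small margin of the lowest Oxidative value. ESF1, a factor of small subunit RNA processing, had 421 and 343 CPM against 305, 256, 243, 241 and 315 CPM, both above the Oxidative range (log2 fold change 0.49 ± 0.23, edgeR adjusted p = 0.309). The peak of DBP7 and RPC37 had 68.5 and 54.5 CPM against 19.7, 48.7, 30.9, 11.8 and 24.4 CPM, again both above (1.18 ± 0.56, edgeR adjusted p = 0.320). Of the 6, 3 were thus lower and 3 higher in Reductive Building. RRP7 and NOP1 had log2 fold changes of -1.43 ± 1.50 and -1.24 ± 1.07, and RRP7, which had 0 counts at time point 12, was at -0.44 without that library.

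The last phase comparison, Reductive Charging over Reductive Building, closes the cycle. This comparison shares its libraries with the other phase comparisons, so its values are not independent of theirs. Of the 28 log2 fold changes 14 were positive and 14 negative, with a median of -0.02 against -0.03 for all peaks. This balance rested on time point 17: without it 17 were positive and 11 negative, with a median of 0.19 against -0.05. edgeR called 1 of 28, IMP21, as lower in Reductive Charging, where it called 1.44% of all peaks, 0.671% of them lower. At an unadjusted p under 0.05 there were 2, IMP21 and HAS1, where 13.8% of all peaks were.

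IMP21 ran from 133 to 246 CPM in Reductive Charging with a median of 172 CPM, below the 334 and 596 CPM of Reductive Building, a log2 fold change of -1.39 ± 0.28 (edgeR adjusted p = 0.0188). Without time point 14 it was -0.84 (edgeR adjusted p = 0.190), and the call was also lost without time point 3 (edgeR adjusted p = 0.0685) or time point 4 (edgeR adjusted p = 0.0505). HAS1 ran from 104 to 164 CPM in Reductive Charging, above its 60.9 and 89.2 CPM in Reductive Building (0.71 ± 0.33, edgeR adjusted p = 0.359; 0.46 without time point 12 and 1.08 without time point 14). BUD22 lay below its 39.8 and 29.8 CPM of Reductive Building in all 6 Reductive Charging libraries (-1.23 ± 0.86, or -0.97 without time point 17), and likewise for UTP20, the peak of DBP7 and RPC37 and, by under 1 CPM, RRN6. With IMP21 and HAS1 these made 6 of 28 without overlap, where 19.6% of all peaks showed it. MAK21 and RRP7 had log2 fold changes of 0.92 ± 0.48 and 1.36 ± 1.47, which were 0.69 and 1.05 without time point 17, and RRP7 was 0.37 without time point 12.

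**Figure D3:**
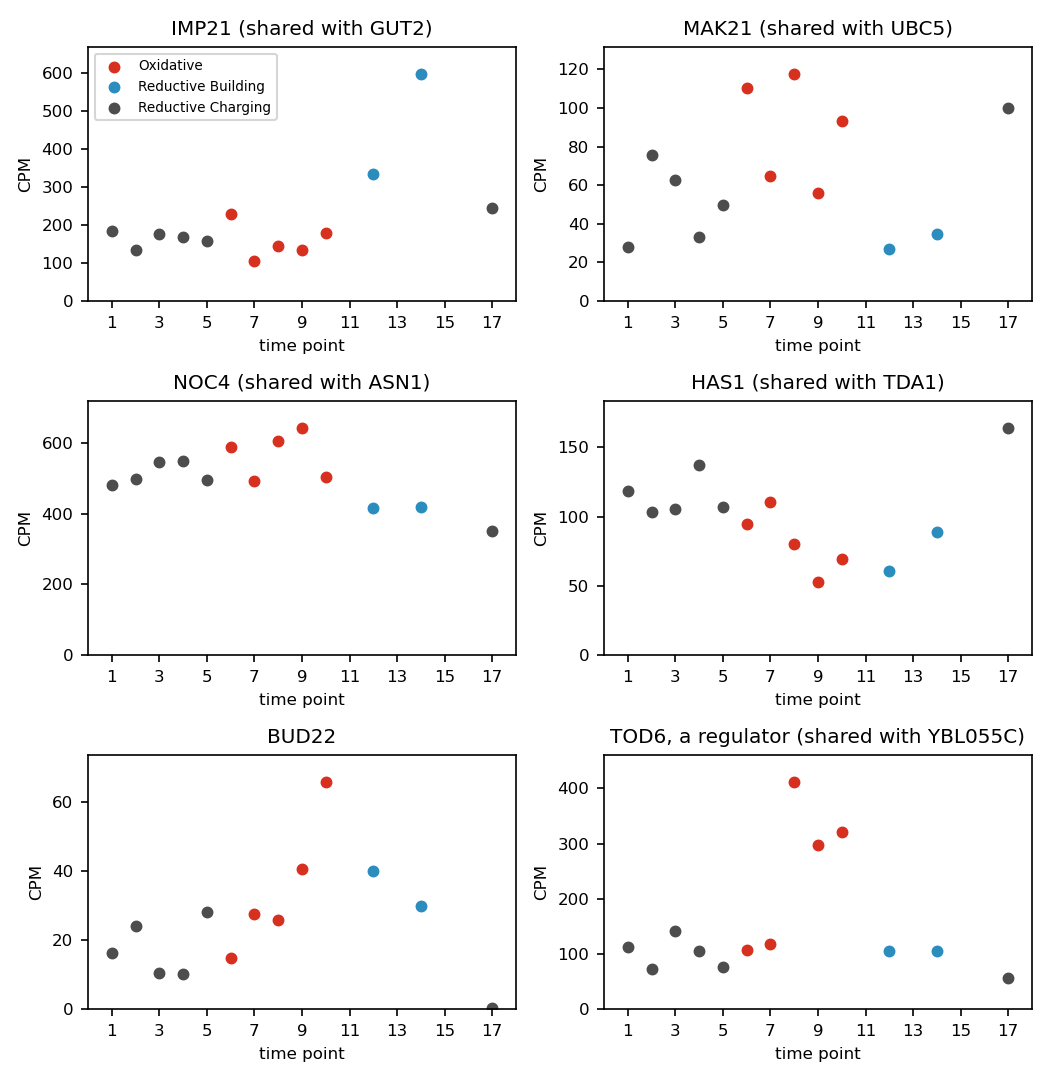
CPM by time point in the 13 well-covered libraries, coloured by phase, for 5 ribosome biogenesis peaks and for TOD6, a repressor of such genes. IMP21 is highest at time points 12 and 14, and TOD6 is at 298 to 411 CPM at time points 8 to 10 and at or below 142 CPM elsewhere.

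The Oxidative phase was also split in order of time. Time points 6 and 7 were set against time points 1 to 5 of Reductive Charging. edgeR called 0 of 28, where it called 0.0479% of all peaks; 0 of 28 had an unadjusted p under 0.05, where 3.26% of all peaks did. DESeq2 and limma-voom also called 0 of 28, where they called 0.0959% of 2085 and 0.0% of 2086 peaks. The median log2 fold change was 0.05, against 0.00 for all peaks. RRP40 had 58.3 and 49.5 CPM at time points 6 and 7, above its 31.1 to 44.1 CPM at time points 1 to 5. UTP20 had 93.7 and 80.8 CPM, above its 57.4 to 74.0 CPM. These were the 2 of 28 without overlap, where 12.0% of all peaks showed it. The largest log2 fold changes were those of MAK21 (0.82 ± 0.40), NOP1 (0.77 ± 0.97) and RPC40 (0.75 ± 0.89). They rested on time point 6, without which they were 0.39, -0.29 and 0.19.

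Time points 8 to 10 were then set against time points 6 and 7. edgeR called 0 of 28, where it called 0.959% of all peaks. limma-voom also called 0 of 28, where it called 0.911% of all peaks. DESeq2 called 0 of the 20 members to which it gave an adjusted p, where it called 3.33% of the 1680 peaks that had one. At an unadjusted p under 0.05 there were 2, RRN5 and RRN6, where 13.4% of all peaks were. RRN5 had 1304, 1453 and 985 CPM at time points 8 to 10, against 1052 and 702 CPM at time points 6 and 7. Time point 10 lay between the earlier values, and the log2 fold change was 0.51 ± 0.21 (edgeR adjusted p = 0.318). RRN6 had 338, 428 and 303 CPM, against 276 and 248 CPM, all later values above the earlier ones, with a log2 fold change of 0.44 ± 0.20 (edgeR adjusted p = 0.370). RRN5 and RRN6 encode factors that bring polymerase I to the ribosomal DNA promoter. The RRN6 peak also overlaps FMT1 and SCT1.

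NOC3, NOG2 and RRN6 lay higher at every one of time points 8 to 10 and HAS1, NOP15 and RRP40 lower, 6 of 28 without overlap where 28.4% of all peaks showed it. The largest log2 fold changes were those of NOG2 (1.58 ± 0.97), NOG1 (1.09 ± 0.67) and RRP7 (1.09 ± 1.52). With 1 library left out, NOG2 was 0.91 without time point 9, NOG1 ran from 0.49 without time point 6 to 2.16 without time point 7, and RRP7 from 0.19 to 4.11 without the same libraries. The most negative were those of RPC40 (-1.35 ± 0.99, from -0.79 without time point 6 to -2.50 without time point 10), RRP40 (-0.70 ± 0.41) and the peak of DBP7 and RPC37 (-0.61 ± 0.59). The group median was 0.05, against 0.00 for all peaks.

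Across the whole order of time points, a spline with 4 degrees of freedom called 0 of 28, where edgeR called 5.08% of all peaks. At an unadjusted p under 0.05 there were 5, where 23.6% of all peaks were. They were BUD22 (edgeR adjusted p = 0.0541), IMP21, UTP25, HAS1 and NOP15, picked out here after their values were seen. DESeq2 called these 5 and limma-voom called 2 of them, BUD22 and UTP25, where the tools called 15.4% and 6.33% of all peaks. Without time point 17 the edgeR adjusted p of BUD22, UTP25 and NOP15 was 0.343, 0.693 and 0.995, and that of IMP21 was 0.00797.

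**Figure D4:**
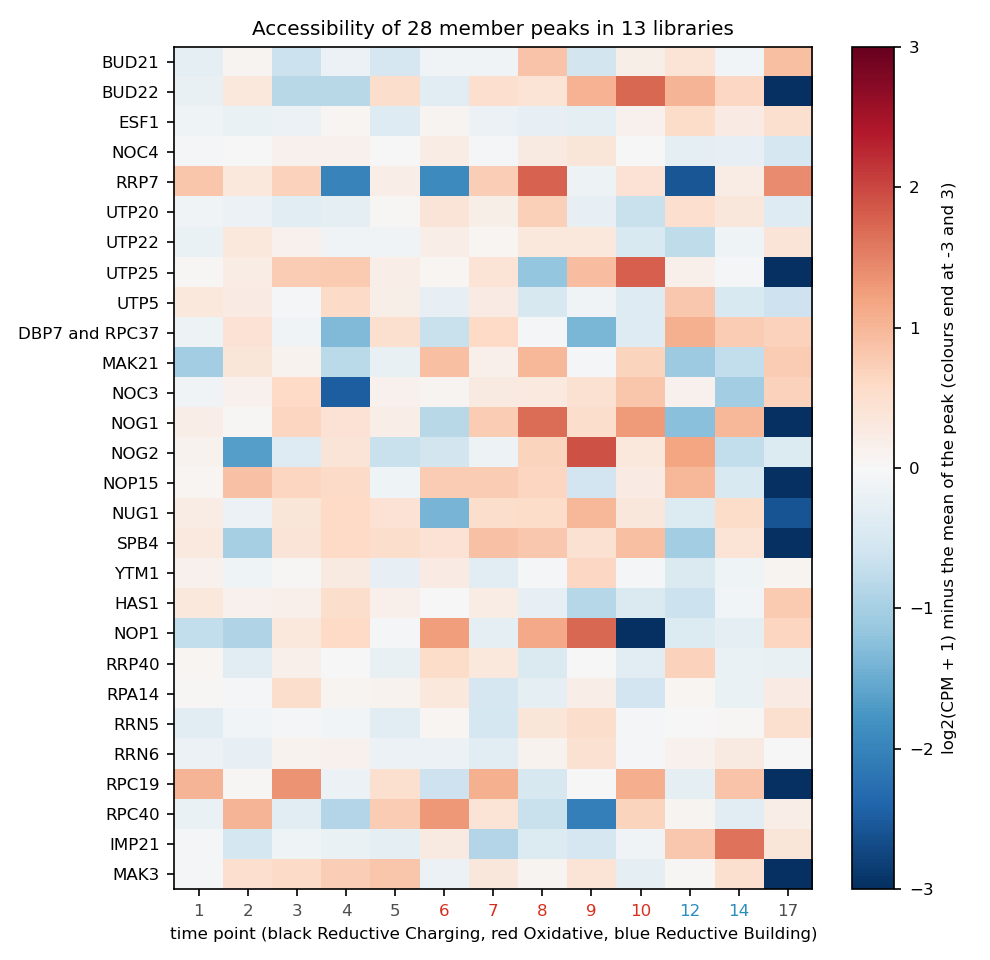
Log2(CPM + 1) of each of the 28 peaks minus its own mean, by time point in the 13 well-covered libraries, ordered by role. Time point 17 holds the deepest values for NOG1, NOP15, SPB4, UTP25, BUD22, RPC19 and MAK3, while BUD21, HAS1 and UTP22 have their highest value there.

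The library in which each peak was highest was most often an Oxidative one. This was so for 16 of 28 peaks (57.1%, against 37.2% of nuclear peaks), while Reductive Building and Reductive Charging libraries held 6 each (21.4%, against 27.4% and 35.4% of nuclear peaks). Time point 9 alone held 7: NOC4, NOG2, NOP1, NUG1, RRN5, RRN6 and YTM1 (25.0%, against 10.3% of nuclear peaks). Time points 8 and 10 held 4 each. These shares are descriptions, since each peak has 1 highest library whatever its spread.

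The mean log2 CPM of the 28 peaks minus that of all nuclear peaks was also highest in Oxidative libraries. It was -0.23 ± 0.14 (SD, n = 5) in Oxidative, -0.40 and -0.31 in the 2 Reductive Building and -0.54 ± 0.40 (SD, n = 6) in Reductive Charging libraries. Over time points 1 to 5 alone the Reductive Charging value was -0.38 ± 0.12 (SD, n = 5), and its range of -0.47 to -0.17 overlapped the Oxidative range of -0.35 to -0.07. The highest values were -0.07 at time point 9 and -0.09 at time point 8, followed by -0.17 at time point 3.

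At time point 17 the mean was -1.33. There, NOG1, NOP15 and UTP25 had 0 counts and SPB4 had 3, so that 4 of 28 (14.3%) had at most 3 counts, against 3.43% of nuclear peaks. Among the 21 weaker members the share was 19.0%, against 4.92% of 1422 nuclear peaks at or under the same mean CPM. Other weak members were also low there: RPC19 had 0.259, BUD22 0.323 and MAK3 0.517 CPM. Not all members were low: RRN5 had 1409, HAS1 164 and BUD21 106 CPM, each above all other Reductive Charging libraries, while NOC4 at 351 CPM was below them. In the 5 poorly covered libraries the mean was -0.98, -1.86, -0.58, -0.43 and -0.85 at time points 11, 13, 15, 16 and 18. These values were scaled over all 18 libraries, so they are not like for like with the others. At time points 15 and 16, 65.4% and 84.2% of nuclear peaks had 0 counts, as did 20 and 25 of the 28. Both log2 means lie near the floor there, so their difference says little. In the 5 libraries, 8, 15, 22, 25 and 9 of the 28 had at most 3 counts, or 28.6%, 53.6%, 78.6%, 89.3% and 32.1%. The shares of nuclear peaks were 15.0%, 30.4%, 69.4%, 88.2% and 17.7%.

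**Figure D5:**
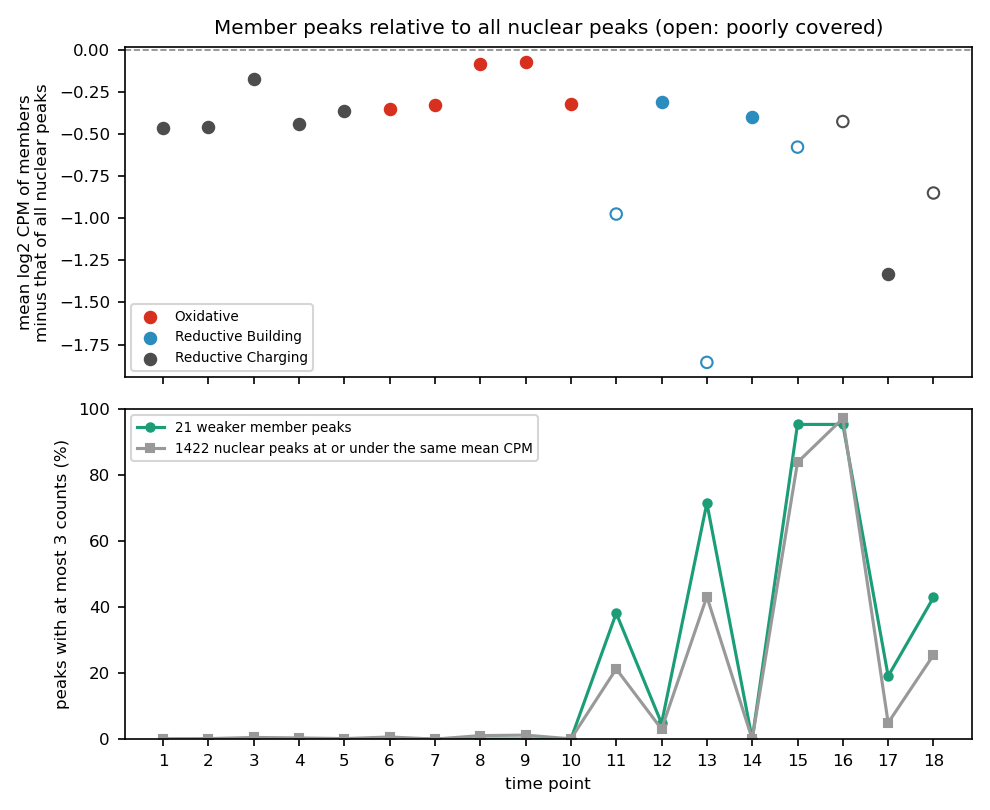
Upper panel: mean log2 CPM of the 28 peaks minus that of all nuclear peaks in each library, coloured by phase. Open circles are poorly covered libraries, scaled over all 18 libraries and not like for like with the filled ones. Lower panel: percent of the 21 weaker members and of similarly weak nuclear peaks with at most 3 counts; at time point 17 these were 19.0% and 4.92%.

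The members differed in how much they varied. Over the 13 libraries the SD of log2 CPM was lowest for RRN6 (0.23), NOC4 (0.24) and YTM1 (0.28) and highest for NOG1 (2.41), NOP15 (2.26) and UTP25 (2.24), the last 3 of which had 0 counts at time point 17. The correlation of a peak with the mean of the other members, a description over 13 libraries that share depth and scaling, was 0.96 for NOG1, 0.93 for SPB4 and 0.91 for MAK3 and RPC19, all of which were low at time point 17. It was -0.63 for ESF1, -0.57 for HAS1 and -0.55 for BUD21.

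Genes of the same pathway outside the symbol rule also gave no calls. Of the 21 peaks of further ribosome assembly genes, edgeR called 0 in each of the 5 comparisons and in the time course, at the background shares given above. At an unadjusted p under 0.05 there were 3, 2, 3, 0, 3 and 3 of 21 in the same order. Their median log2 fold changes in the 3 phase comparisons were 0.12, -0.08 and -0.04. The 120 ribosomal protein peaks had medians of 0.20, -0.57 and 0.41 in the same order, beside 0.14, -0.12 and -0.02 for ribosome biogenesis; the comparisons share libraries, and the difference between the groups was not tested.

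Among 10 regulators of ribosome biogenesis genes with a peak, 1 was called in any of the 5 comparisons or the time course, in Oxidative over Reductive Charging (2.78% of all peaks called) and in time points 8 to 10 over 6 and 7 (0.959%). This was TOD6, which encodes a repressor that binds the PAC element of ribosome biogenesis promoters. Its peak (chrII:116664-117525, R64), shared with YBL055C, was called higher in the Oxidative phase. It had 106, 118, 411, 298 and 321 CPM in Oxidative libraries, against a lowest of 55.6, a median of 91.2 and a highest of 142 CPM in Reductive Charging. Time points 8 to 10 lay above all other libraries, and time points 6 and 7 lay within the Reductive Charging range. The 2 Reductive Building libraries had 106 CPM each.

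The log2 fold change of the TOD6 peak was 1.41 ± 0.33 over Reductive Charging (edgeR adjusted p = 0.0426) and 1.61 ± 0.30 for time points 8 to 10 over 6 and 7 (edgeR adjusted p = 0.0165). Both calls rest on few libraries. The first was lost without any single one of time points 1 to 5 or 8 to 10 (log2 fold change 1.16 to 1.58, edgeR adjusted p 0.0623 to 0.145), and the second without time point 6, 7 or 8 (edgeR adjusted p = 0.216, 0.123 and 0.0573). limma-voom did not call the first (adjusted p = 0.0833), and with total count scaling the second was not called (edgeR adjusted p = 0.387). For time points 8 to 10 over 6 and 7 the ribosome biogenesis peaks themselves had a median log2 fold change of 0.05 with 0 called.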

How the data were processed

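ATAC-seq was done on 18 fermenter samples of the yeast metabolic cycle. The authors deposited raw counts per peak for a common list of 2086 peaks; per the submitters' processing notes Trimmomatic, Bowtie2, MACS2 and build R64 were used. Tool versions, read shifting, treatment of duplicate and multiply mapping reads, and pooling before peak calling: not given in the sources used here. Retained duplicates would leave counts less independent, so counting floors (3 counts) cover counting error only.

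Here the 18 columns were matched to samples by description, with 0 unmatched. Peaks were linked to 5' ends of coding genes (RefSeq R64 annotation, strand from the systematic name) within 500 bp. The peak with the highest mean CPM over all 18 libraries, scaled to total counts without TMM factors, stood for a gene. Starts were written 1-based. Peaks were tested with edgeR 4.0.16 in R 4.3.3 (TMM, filterByExpr, robust quasi-likelihood F test), adjusted over all 2086 peaks by Benjamini-Hochberg at 0.05; standard errors were derived from each fold change with its F statistic. Phases were fitted together over the 13 libraries in which no more than 10% of nuclear peaks had 0 counts. The split Oxidative phase had a fit of its own, and time was modelled by a natural spline (4 degrees of freedom). The tests were tested on simulated data. DESeq2 1.42.0 and limma 3.58.1 were alternatives, beside other scalings, filters, library sets, linking distances and each library left out. The named members were all called ones, the top 3 and bottom 3 log2 fold changes per comparison, the 3 highest and 3 lowest CPM per kb, and the smallest p per role in Oxidative over Reductive Charging; others were chosen after their values were seen. The members, gene lists and the set of 13 libraries were chosen with earlier results of these data known. Plots were drawn with matplotlib 3.10.9.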

Additional observations from a re-analysis of the deposited data

Results flagged for a closer look

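In Reductive Charging, the library at time point 17 lay apart from the other 5 for 5 of the 29 sets of values examined (28 peaks and their mean level). In Oxidative libraries 0 of 29 were set apart. By chance about 1 in 20 is flagged, but the sets are not independent, since 1 is the mean of the 28 peaks. The other nuclear peaks were not examined in this way. Of all nuclear peaks, 17.9% had their highest CPM at time point 17, against 10.7% of members. The library was high for BUD21 (106 CPM) and RRN5 (1409 CPM), and low for NOC4 (351 CPM), for NOG1 (0.0 CPM) and for the mean log2 level of the members relative to all nuclear peaks (-1.33). What sets this library apart was not tested.

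The 5 poorly covered libraries enter none of the comparisons, but some members had signal in them. The number of member peaks above 3 counts, the limit that a count of 0 allows, was 20 at time point 11, 13 at time point 13, 6 at time point 15, 3 at time point 16 and 19 at time point 18, of 28 each. At most 3 counts were thus found for 28.6%, 53.6%, 78.6%, 89.3% and 32.1% of members in this order. For nuclear peaks the shares were 15.0%, 30.4%, 69.4%, 88.2% and 17.7%.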

How the results depend on the processing

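For Oxidative over Reductive Charging and for time points 6 and 7 over 1 to 5, 0 members were called under each alternative run (in the first, DESeq2 gave 14 of 28 members no adjusted p). In Reductive Building over Oxidative the count of 1 became 0 with 16 libraries (those with at most 50% of nuclear peaks at 0), where 5 of all peaks were called. It also became 0 with all 18, with quality weights and with total count scaling, where 0 of all peaks were called. With 250 bp linking, unshared peaks alone and no name matches of another role, it was 0 of 22, 0 of 9 and 0 of 26. These last settings leave out the IMP21 peak, the only called one, so their result was fixed in advance. The count became 2 with DESeq2, where 104 of all peaks were called, and 2 of 42 with 1000 bp linking, where 31 were. In Reductive Charging over Reductive Building it became 0 under the same alternatives except total count scaling, DESeq2 and 1000 bp linking, where it was 1. Of all peaks, 2 were called there with 16 libraries and 0 with all 18 or with quality weights. Here too, 250 bp linking, unshared peaks and no name matches leave out the IMP21 peak. With 1 library left out, the count in the second comparison became 0 without time point 3 or 4, where 3 and 13 of all peaks were called. Leaving out time point 14 left 1 Reductive Building library, and the log2 fold changes of IMP21 were then 0.99 and -0.84. For time points 8 to 10 over 6 and 7 the count became 2 of 42 with 1000 bp linking, where 0.959% of all peaks were called.

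In the time course the count was 0, where 5.08% of all peaks were called. It became 1 with 16 libraries, DESeq2 size factors, loess offsets, nuclear peaks alone, the stricter filter and 1000 bp linking. It became 2 with limma-voom, where 6.33% of all peaks were called, and 5 with DESeq2, where 15.4% were. With quality weights and with 5 degrees of freedom it became 2. It ran from 0 to 5 with each library left out (5 without time point 14). The share of all peaks called differed between tools, so these counts are not like for like.

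The median of members minus that of all peaks was -0.14 in Reductive Building over Oxidative and became -0.29 with 16 libraries, -0.36 with all 18 and 0.024 with the stricter filter. For time points 8 to 10 over 6 and 7 it was 0.05, and 0.40 over unshared peaks; with each library left out it ran from 0.016 to 0.22 there and from 0.018 to 0.20 for time points 6 and 7 over 1 to 5. In Oxidative over Reductive Charging it was 0.13 and ran from 0.061 to 0.30 over the alternatives, and in Reductive Charging over Reductive Building it was 0.011 and ran from -0.22 to 0.24, highest without time point 17. The cause was not tested.

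No called member changed sign. IMP21 lost its calls with 16 libraries (1.78 and -1.40), all 18 (2.03 and -1.80) and quality weights (1.50 and -1.36). TOD6 lost both with 16 libraries (edgeR adjusted p = 0.197 and 0.609) and all 18. Signs of uncalled values turned in 21 cases. In Oxidative over Reductive Charging these were, with total count scaling, 0.24 for DBP7 and RPC37, 0.27 for IMP21, 0.11 for RPA14 and 0.18 for UTP5; with 16 libraries -0.11 for MAK21 and -0.14 for RRP40; for NOP1 -0.063 with quality weights and -1.41 with limma-voom; and for RRP40 -0.011 with all 18 and -0.0031 to 0.26 with each library left out (lowest without time point 6). In Reductive Building over Oxidative NOP1 turned to 1.00 with limma-voom. In Reductive Charging over Reductive Building NOG2 was 0.12 with 16 libraries, 0.33 with all 18 and -1.54 to 0.49 with each library left out (highest without time point 12), and RRP7 -0.11 with 16. For time points 6 and 7 over 1 to 5, with each library left out NOP1 ran from -0.29 to 1.37, NUG1 from -1.83 to 0.23 and RRP7 from -3.37 to 0.54, each turned without time point 6, and with total count scaling NUG1 was 0.14 and RRP7 0.29. For time points 8 to 10 over 6 and 7 DBP7 and RPC37 ran from -1.12 to 0.19, turned without time point 7.

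No paired analysis was possible because the labels give no replicate numbers. The planned motif shares were not run, since no sequence was used here. Weak peaks, down to 7.05 CPM, and 2 Reductive Building libraries limit what could be detected. Leaving out name matches of another role and ranking peaks over the 13 libraries were chosen after seeing the data.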
